A study of Homo sapiens with 8 samples.

Results

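The 10 genes described here encode enzymes that make serine, load and oxidise one-carbon units in mitochondria, and make proline, cysteine and asparagine. They are PHGDH, PSAT1, PSPH, SHMT2, MTHFD2, ALDH1L2, PYCR1, ALDH18A1, CTH and ASNS. They were taken by symbol from a deposited count table of 60617 genes, of which 17693 were tested, and all 10 passed the filter on low counts. The RNA came from MCF-10A, a widely used human mammary epithelial line that does not form tumours, and was sequenced in 8 libraries. The 4 groups of 2 libraries were Empty untreated, Empty JG-98, NeuT untreated and NeuT JG-98. JG-98, a small molecule that binds Hsp70 chaperones, was given at 1 µM for 12 h, and the controls are labelled untreated with no vehicle named. All groups shared the parental line and a medium with horse serum, epidermal growth factor, hydrocortisone, insulin, cholera toxin and glutamine. The labels do not say what the Empty and NeuT cells carry, what drives it, or whether either line is 1 clone. They also do not say whether replicates were separate cultures, so the tests measure the spread between these libraries, which may be technical.

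Serine is made from a glycolytic intermediate by PHGDH, PSAT1 and PSPH acting in order. The mitochondrial enzyme SHMT2 then moves a carbon from serine to tetrahydrofolate, MTHFD2 oxidises the loaded folate, and ALDH1L2 oxidises the formyl group to carbon dioxide while making NADPH. ALDH18A1 opens and PYCR1 closes the route from glutamate to proline, CTH releases cysteine from cystathionine, and ASNS makes asparagine from aspartate. Many of these genes are known targets of ATF4, the transcription factor whose translation rises when eIF2α is phosphorylated, and the title of the series concerns that phosphorylation through the kinase HRI.

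Promoter sequence was available for 6 of the genes in a RefSeq table (build GRCh38.p14) of windows from 250 bases before to 50 bases after a gene's start. Windows were searched on both strands for TGATGNAA, the core of the element bound by ATF4 with C/EBP partners, and for CCAAT, a motif bound by NF-Y. The first motif was found in 1264 of 34796 windows (3.63%) and, among the 6 genes, in ASNS, which has 2 windows. The match, TGATGAAA, lay in the ASNS window from 97872359 to 97872658 and not in the other. It began 68 bases before the start. ASNS is shown because it had the largest change with the drug. The 30 bases printed around the match lie within the span of ASNS as counted (97851677 to 97872542). The CCAAT motif was in 12046 windows (34.6%) and in those of PSAT1, MTHFD2, CTH and PHGDH, but not in those of ASNS or ALDH18A1. The upstream stretches of PSAT1, MTHFD2 and CTH, which rose together, and of ALDH18A1, the gene that fell, are shown for comparison. Capitals mark TGATGNAA in ASNS and CCAAT in the others, each strand read 5′ to 3′ toward the gene.
ASNS (chr7:97872458-97872487, minus strand): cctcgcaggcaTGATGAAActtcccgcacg
PSAT1 (chr9:78296875-78297124, plus strand): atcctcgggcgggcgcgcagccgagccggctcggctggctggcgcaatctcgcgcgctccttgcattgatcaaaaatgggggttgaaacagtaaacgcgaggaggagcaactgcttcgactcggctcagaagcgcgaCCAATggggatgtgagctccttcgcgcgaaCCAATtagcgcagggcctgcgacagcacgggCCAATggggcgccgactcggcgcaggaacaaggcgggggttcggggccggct
MTHFD2 (chr2:74198365-74198609, plus strand): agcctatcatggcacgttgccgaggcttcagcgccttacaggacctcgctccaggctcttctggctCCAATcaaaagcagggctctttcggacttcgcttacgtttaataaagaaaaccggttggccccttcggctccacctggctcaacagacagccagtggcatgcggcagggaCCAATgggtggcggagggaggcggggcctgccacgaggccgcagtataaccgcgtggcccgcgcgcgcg
CTH (chr1:70411018-70411217, plus strand): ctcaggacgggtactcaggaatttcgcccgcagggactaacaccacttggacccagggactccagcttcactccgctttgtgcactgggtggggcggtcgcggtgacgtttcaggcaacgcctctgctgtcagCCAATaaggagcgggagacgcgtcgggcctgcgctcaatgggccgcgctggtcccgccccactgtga
ALDH18A1 (chr10:95656712-95656961, minus strand): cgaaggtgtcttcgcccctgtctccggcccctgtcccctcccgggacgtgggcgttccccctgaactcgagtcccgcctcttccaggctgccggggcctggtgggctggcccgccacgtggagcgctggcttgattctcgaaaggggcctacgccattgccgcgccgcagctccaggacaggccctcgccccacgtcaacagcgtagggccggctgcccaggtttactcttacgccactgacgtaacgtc
The PSAT1 stretch holds CCAAT 3 times, that of MTHFD2 2 times and that of CTH 1 time. These matches describe the letters only, and no binding was measured. SHMT2, ALDH1L2, PYCR1 and PSPH are named only.

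Total counts were 55050996 to 56861971 in 7 libraries and 37341458 in Empty JG-98 replicate 1. Epithelial identity was checked with 8 markers (KRT5, KRT14, KRT17, KRT6A, CDH1, EPCAM, TP63 and EGFR), all detected. Their summed level was 21151 to 22349 CPM (counts per library size after TMM scaling) in Empty libraries and 25440 to 28385 CPM in NeuT libraries. KRT14, KRT17 and EPCAM were lower in every NeuT library than in any Empty one, and KRT5, KRT6A, CDH1, TP63 and EGFR were higher. EPCAM was at 196 to 223 CPM in Empty and 93.4 to 101 CPM in NeuT. TP63 was at 2.69 to 3.65 CPM in Empty and 7.25 to 9.43 CPM in NeuT. Of 4 fibroblast, 4 leukocyte and 4 endothelial markers none was at 0 in all libraries. Fibroblast markers summed to 8.27 to 9.50 CPM in Empty and 68.2 to 82.8 CPM in NeuT. DCN, the gene for the matrix proteoglycan decorin, gave 2.47 to 3.57 CPM of this in Empty, where COL1A1 gave 4.85 to 5.72 CPM, and 62.4 to 77.5 CPM in NeuT. Leukocyte markers summed to 5.01 to 6.99 CPM in Empty and 10.8 to 12.3 CPM in NeuT, nearly all from CD14, while PTPRC, CD3E and CD68 had at most 4 counts in a library. Endothelial markers summed to 12.3 to 17.5 CPM in Empty and 9.29 to 11.1 CPM in NeuT. The fibroblast, leukocyte and endothelial sums differed between the lines, and the epithelial sum also differed with JG-98 in NeuT, at 27649 to 28385 CPM untreated and 25440 to 26753 CPM treated. The part of these sums in the results was not tested. In bulk RNA, fewer cells of a type and less RNA per cell cannot be told apart.

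With JG-98, 9 of the 10 genes were higher in both treated libraries than in both untreated libraries of the same line, in Empty and in NeuT alike, and ALDH18A1 was lower. Over all genes tested, 20.9% had both treated libraries above both untreated ones in Empty and 21.9% in NeuT. A gene is described as called, or as having risen or fallen, where its edgeR quasi-likelihood p-value, adjusted over all genes tested, was under 0.05. In Empty 5 of the 10 genes rose and none fell, where 0.339% of all genes were called, 0.26% as higher. In NeuT 9 rose and ALDH18A1 fell, where 3.01% of all genes were called, 2.01% higher and 1.01% lower. At an unadjusted edgeR p-value under 0.05 all 10 genes passed in each line, as did 9.83% of all genes in Empty and 16% in NeuT. The median log2 fold change of the 10 genes was 0.43 in Empty and 0.83 in NeuT, beside medians of -0.00334 and 0.000213 over all genes. The count for Empty depended on single libraries, as did that over all genes (60). Without Empty JG-98 replicate 1, the shallowest library, 1 of the 10 genes (PHGDH) was called among 9 genes in all. Without any other Empty library 2 were called (PHGDH and PSAT1), among 16 to 37 genes in all. Without either treated NeuT library 9 were called, among 404 and 417 genes in all. In NeuT 7 to 10 of the genes were called with 1 library left out, and 132 to 2133 genes in all against 533, both lowest without NeuT untreated replicate 1. A group left with 1 library is assumed to vary like the others.

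**Figure D1:**
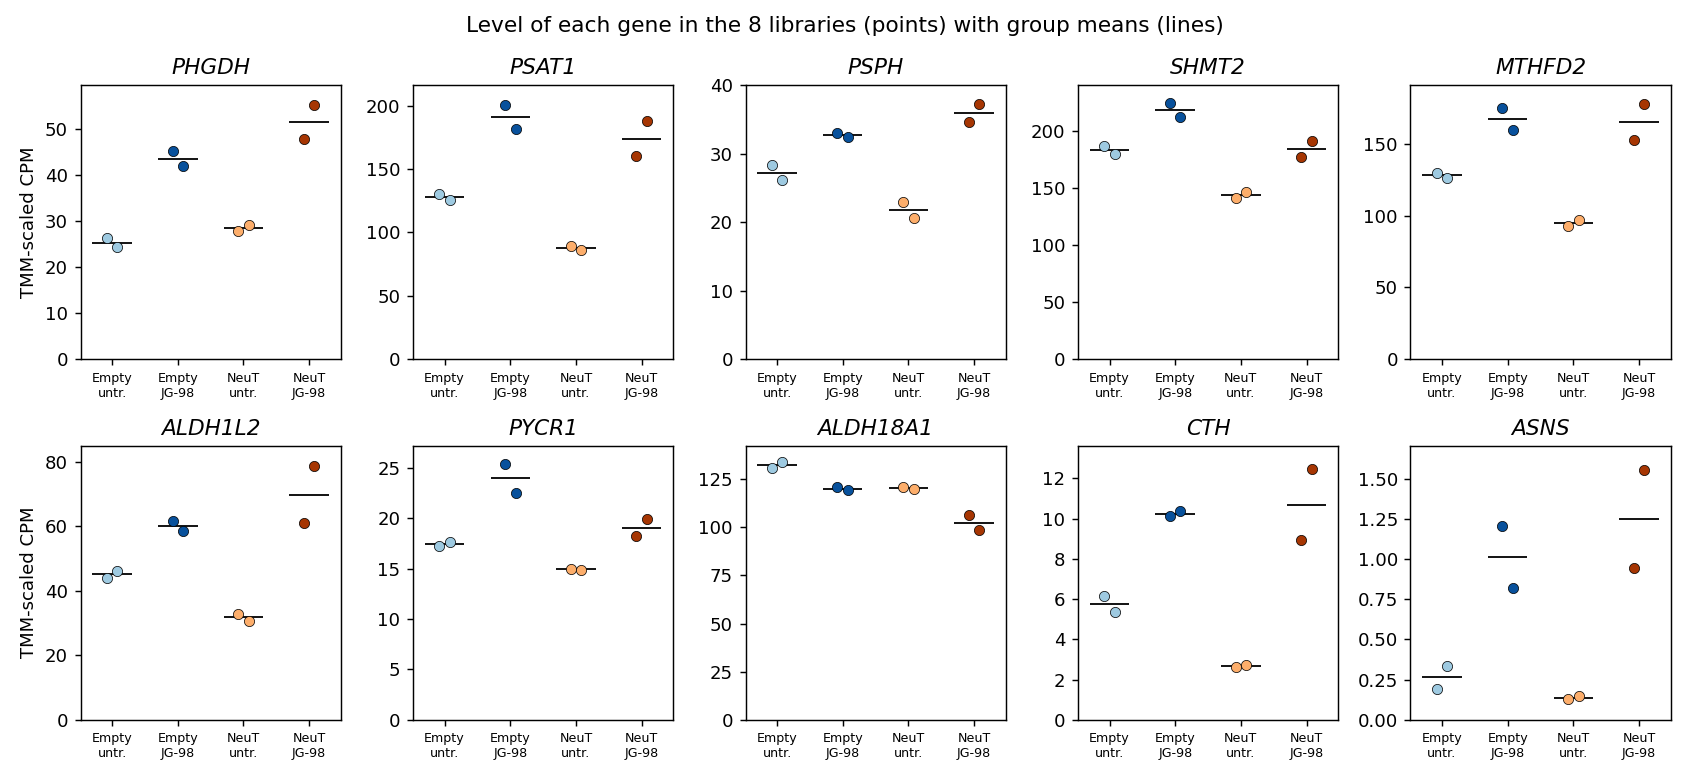
TMM-scaled CPM (vertical axes, each starting at 0) of the 10 genes in the 4 groups (horizontal axes; "untr." is untreated), with 1 point per library and a line at the group mean. Both treated libraries lie above both untreated ones in each line for 9 genes and below them for ALDH18A1.

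The serine synthesis genes are taken first. PHGDH (ENSG00000092621, chromosome 1, 119648411 to 119744226), which commits carbon to serine, was at 26.3 and 24.3 CPM in the untreated Empty libraries and at 45.2 and 42.0 CPM in the treated ones. In NeuT it was at 27.8 and 29.1 CPM without and at 47.8 and 55.2 CPM with the drug. All 4 treated libraries lay above all 4 untreated ones, whichever the line. In Empty cells PHGDH rose by 0.78 on the log2 scale (SE 0.081; adjusted p-value 9.98e-05 by edgeR). The rise in NeuT cells was 0.85 (SE 0.080; adjusted p-value 1.18e-05 by edgeR). PHGDH was the gene of the 10 whose call held in both lines under each of 17 other settings.

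PSAT1 (ENSG00000135069, chromosome 9, 78297125 to 78330093), the aminotransferase of the second step, was at 130.3 and 125 CPM in untreated Empty and 200.4 and 182 CPM in treated Empty. In NeuT its libraries were at 89.2 and 86.1 CPM untreated and 160.3 and 188 CPM treated. The untreated NeuT libraries were the lowest of the 8, and the treated libraries of the lines overlapped. PSAT1 rose by 0.58 on the log2 scale in Empty (SE 0.072; edgeR adjusted p-value 0.000914) and by 0.99 in NeuT (SE 0.072; edgeR adjusted p-value 1.27e-06). The Empty call did not hold without Empty JG-98 replicate 1 (edgeR adjusted p-value 0.0546).

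PSPH (ENSG00000146733, chromosome 7, 56011051 to 56051604), the phosphatase that releases serine, had 28.3 and 26.2 CPM in untreated Empty and 33.1 and 32.5 CPM in treated Empty. In NeuT it had 22.9 and 20.6 CPM untreated and 34.6 and 37.3 CPM treated. Both NeuT libraries were below the Empty ones before the drug and above them after it, but the treated difference of 0.13 was called neither here (adjusted p-value 0.188 by edgeR) nor in any of 17 other settings. The change in Empty was 0.27 (SE 0.079) and not called (edgeR adjusted p-value 0.224), and in NeuT PSPH rose by 0.73 (SE 0.080; edgeR adjusted p-value 5.26e-05).

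The mitochondrial one-carbon genes follow, and their changes were not tested against each other. SHMT2 (ENSG00000182199, chromosome 12, 57229573 to 57234935) was at 187 and 179.9 CPM in untreated Empty, 225 and 212 CPM in treated Empty, 141 and 147 CPM in untreated NeuT and 177 and 191 CPM in treated NeuT. The groups of a line did not overlap, and the treated NeuT libraries lay on either side of the untreated Empty ones. Its log2 fold change was 0.25 (SE 0.057) in Empty, short of the threshold (edgeR adjusted p-value 0.0878). In NeuT it was 0.36 (SE 0.058), and SHMT2 rose (edgeR adjusted p-value 0.00185; 0.0882 without NeuT untreated replicate 1).

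MTHFD2 (ENSG00000065911, chromosome 2, 74198610 to 74217565) had 130.1 and 126 CPM in untreated Empty and 175 and 160.1 CPM in treated Empty. In NeuT it had 92.5 and 97.0 CPM untreated and 153 and 178 CPM treated. As with PSAT1, the lines were apart before the drug and overlapped after it. MTHFD2 rose by 0.39 in Empty (SE 0.070; edgeR adjusted p-value 0.0214) and by 0.80 in NeuT (SE 0.071; edgeR adjusted p-value 7.03e-06). Among the other settings the call in Empty held in 11 of 17, and edgeR gave an adjusted p-value of 0.456 without Empty JG-98 replicate 1. Of its exonic bases 33.6% are also exonic in genes on the other strand, chiefly SLC4A5, which had at most 16 counts in a library.

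ALDH1L2 (ENSG00000136010, chromosome 12, 105019784 to 105107643) was at 43.9 and 46.3 CPM in untreated Empty and 61.5 and 58.5 CPM in treated Empty. Its NeuT libraries were at 32.9 and 30.6 CPM untreated and 61.0 and 78.6 CPM treated, so the treated NeuT replicates lay well apart. In Empty the log2 fold change of 0.41 (SE 0.096) was not called (edgeR adjusted p-value 0.114). In NeuT ALDH1L2 rose by 1.14 (SE 0.097; edgeR adjusted p-value 1.50e-05).

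The proline genes moved in opposite directions. ALDH18A1 (ENSG00000059573, chromosome 10, 95605941 to 95656711) was at 131 and 134 CPM in untreated Empty, 121 and 119 CPM in treated Empty, 121 and 120.1 CPM in untreated NeuT and 106 and 98.4 CPM in treated NeuT. It fell by 0.24 on the log2 scale in NeuT (SE 0.057; edgeR adjusted p-value 0.0302), and its change of -0.14 (SE 0.057) in Empty was not called (edgeR adjusted p-value 0.405). The NeuT call was made in 11 of 17 other settings and was lost, among others, without NeuT untreated replicate 1 (edgeR adjusted p-value 0.241).

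PYCR1 (ENSG00000183010, chromosome 17, 81932384 to 81942412) was at 17.2 and 17.7 CPM in untreated Empty and at 25.4 and 22.6 CPM in treated Empty. In NeuT it was at 15.0 and 14.9 CPM untreated and 18.2 and 19.9 CPM treated. The treated NeuT libraries were below the treated Empty ones. PYCR1 rose by 0.45 in Empty (SE 0.088; edgeR adjusted p-value 0.0311) and by 0.35 in NeuT (SE 0.089; edgeR adjusted p-value 0.0400). Each call held in 10 of 17 other settings, and edgeR gave 0.522 in Empty without Empty JG-98 replicate 1 and 0.315 in NeuT without NeuT untreated replicate 2. The overlapping gene on its own strand, MYADML2, had at most 2 counts in a library.

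CTH (ENSG00000116761, chromosome 1, 70411218 to 70439851), the cysteine-forming enzyme, had 6.16 and 5.34 CPM in untreated Empty and 10.1 and 10.4 CPM in treated Empty. In NeuT it had 2.63 and 2.73 CPM untreated and 8.92 and 12.5 CPM treated. The untreated NeuT level was the lowest, and the treated NeuT libraries lay on either side of the treated Empty ones. CTH rose by 0.83 in Empty (SE 0.14; edgeR adjusted p-value 0.0150). The rise in NeuT was 1.997 (SE 0.16; edgeR adjusted p-value 1.96e-06). The Empty call held in 13 of 17 other settings, with edgeR adjusted p-values up to 0.338, reached without Empty untreated replicate 2. CBS, which makes the cystathionine that CTH splits, had 35 counts in all and was not tested.

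ASNS (ENSG00000070669, chromosome 7, 97851677 to 97872542) had 11 and 19 counts in untreated Empty, 46 and 48 in treated Empty, 7 and 8 in untreated NeuT and 51 and 84 in treated NeuT. That is 0.194 and 0.333, 1.21 and 0.818, 0.128 and 0.148, and 0.943 and 1.55 CPM. Treated libraries were above untreated ones throughout, at counts so low that a handful of reads sets each untreated value. Its log2 fold change of 1.91 (SE 0.41) in Empty missed the threshold (edgeR adjusted p-value 0.0629). It was 3.16 (SE 0.45) in NeuT, where the gene rose (edgeR adjusted p-value 0.000672). Of its exonic bases 49.3% lie in exons of an unnamed gene on the same strand, ENSG00000284707, which had 11 to 39 counts per library (23 and 24, 11 and 20, 32 and 27, and 39 and 33 in the same order of groups). How reads in shared exons were counted is not given in the sources used here, so the level of ASNS is uncertain. DESeq2 gave no adjusted p-value for ASNS in NeuT. The stretch printed above from the ASNS promoter holds the only TGATGNAA match among the 6 genes with a window.

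**Figure D2:**
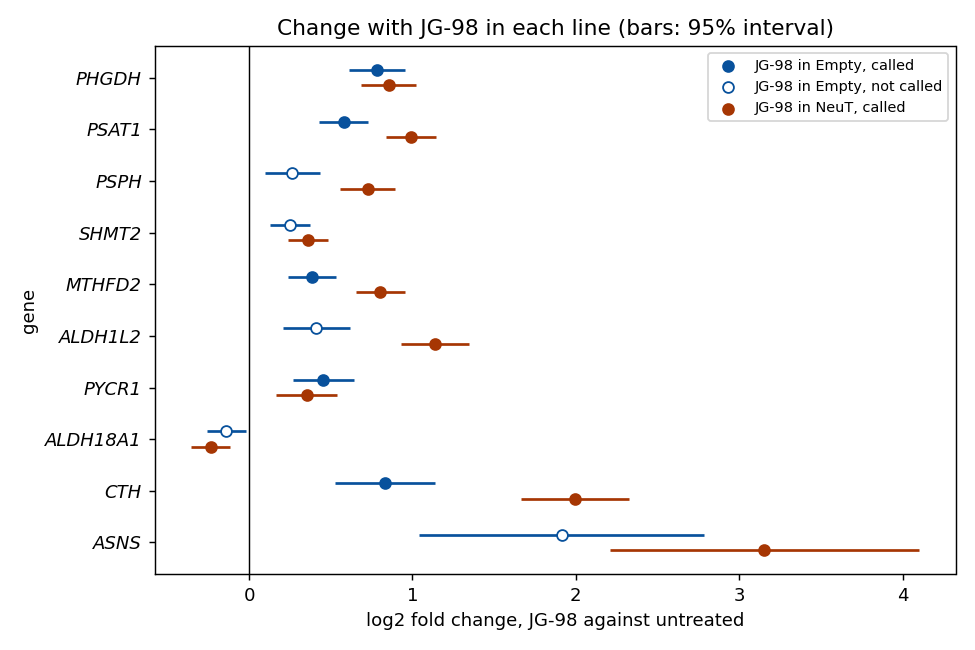
Log2 fold change with JG-98 (horizontal axis) of each gene (vertical axis) in Empty (blue) and NeuT (brown), with 95% intervals as bars, filled points where called and open points where not. All 10 genes are called in NeuT and 5 in Empty, and the points of ALDH18A1 alone lie below 0.

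The authors' deposited tables gave similar calls from their own model of the same libraries, so they are not a separate test. In the authors' deposited table for Empty the same 5 genes had an adjusted p-value under 0.05, from 0.000457 for PHGDH to 0.0357 for PYCR1, as did 0.271% of its 17698 genes. In the authors' deposited table for NeuT 9 of the 10 genes and 2.97% of all genes did, and PYCR1 missed with 0.0555.

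Whether the lines responded differently was tested with the interaction, the NeuT change minus the Empty change. By edgeR none of the 10 genes was called, against 0.00565% of all genes (1 gene), so the larger rises in NeuT are not shown to differ from those in Empty. With an unadjusted edgeR p-value, 5 of the 10 were under 0.05, as were 7.78% of all genes. The interaction was 1.16 for CTH (95% interval 0.71 to 1.61; edgeR adjusted p-value 0.124) and 0.73 for ALDH1L2 (0.43 to 1.02; edgeR adjusted p-value 0.154). For PSPH it was 0.46 (0.22 to 0.70), for MTHFD2 0.42 (0.21 to 0.63) and for PSAT1 0.41 (0.20 to 0.63), with edgeR adjusted p-values of 0.349 to 0.350. For PHGDH the interval ran from -0.17 to 0.31, for SHMT2 from -0.06 to 0.28, for PYCR1 from -0.37 to 0.16, for ALDH18A1 from -0.27 to 0.07 and for ASNS from -0.10 to 2.58. Without NeuT JG-98 replicate 1, edgeR called the interaction of CTH, ALDH1L2, PSPH, MTHFD2 and PSAT1 among 777 genes in all. That fit holds 1 treated NeuT library and takes its error from the other groups, while the treated NeuT pair differed the most of the 4 (chi-square statistic per gene of 21.0, against 4.43 to 7.82). Without the filter on low counts edgeR called the same 5 among 138. DESeq2 called CTH and ALDH1L2 among 26 genes in all, edgeR called ALDH1L2 among 15 genes in all without NeuT JG-98 replicate 2, and limma-voom called none of the 10.

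The treated NeuT replicates differed from each other more than other replicate pairs. The median log2 ratio of the 10 genes to the untreated mean was 0.72 in replicate 1 and 0.93 in replicate 2, and 9 of the 10 genes were higher in replicate 2. In treated Empty the medians were 0.50 and 0.37, and 1 gene was higher in replicate 2. Over all tested genes the same medians were within 0.00766 of 0.

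Before treatment the lines differed in 6 of the 10 genes, all lower in NeuT, where 42% of all genes were called, 21.2% higher and 20.8% lower in NeuT. By edgeR the log2 differences were -1.10 for CTH (SE 0.16; adjusted p-value 3.11e-05), -0.54 for PSAT1 (SE 0.072; 1.23e-05), -0.51 for ALDH1L2 (SE 0.097; 0.000688), -0.44 for MTHFD2 (SE 0.071; 9.21e-05), -0.35 for SHMT2 (SE 0.058; 9.31e-05) and -0.33 for PSPH (SE 0.080; 0.00339). PHGDH was the gene with a higher mean in NeuT, by 0.17, which was not called (edgeR adjusted p-value 0.107). PYCR1 (-0.23), ALDH18A1 (-0.13) and ASNS (-0.92) were not called either, with edgeR adjusted p-values of 0.0520, 0.0678 and 0.177. Both untreated NeuT libraries were below both untreated Empty ones for 9 of the 10 genes, as for 37.1% of all genes. The PSPH call was lost without Empty untreated replicate 1 and without NeuT untreated replicate 2. Scaling shifts the balance of calls. When libraries were scaled by total counts, 40.7% of all calls were higher in NeuT, against 50.5% with TMM, and PYCR1 and ALDH18A1 were also called lower.

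Under JG-98 the lines differed in 4 of the 10 genes, where 41.7% of all genes were called, 21.7% higher and 20% lower, and 5 of the 6 earlier differences were not called in this fit. SHMT2 remained lower in NeuT, by 0.25 (SE 0.058; edgeR adjusted p-value 0.00227), and PYCR1 (-0.33, SE 0.088) and ALDH18A1 (-0.23, SE 0.057) were called lower, with edgeR adjusted p-values of 0.00611 and 0.00340. PHGDH was called higher in NeuT, by 0.24 (SE 0.079; edgeR adjusted p-value 0.0202). That call was lost without NeuT JG-98 replicate 2 (0.191) and without Empty JG-98 replicate 2 (0.163), and the PYCR1 call was lost without Empty JG-98 replicate 1 (0.0853). The remaining differences had 95% intervals of -0.23 to 0.36 for CTH, -0.28 to 0.02 for PSAT1, -0.17 to 0.13 for MTHFD2, -0.03 to 0.30 for PSPH, 0.02 to 0.42 for ALDH1L2 and -0.43 to 1.07 for ASNS. With total counts, 41.0% of all calls were higher in NeuT, against 52.0% with TMM, PSAT1 was called lower in NeuT and PHGDH was not called. Single libraries moved these values. Without NeuT JG-98 replicate 2 PSAT1 was at -0.25 and called lower (edgeR adjusted p-value 0.00178) and ALDH1L2 was at 0.0273. Without NeuT JG-98 replicate 1 PSAT1 was at -0.0143 and ALDH1L2 was at 0.398 and called higher (edgeR adjusted p-value 4.29e-05), as it also was without the filter on low counts.

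**Figure D3:**
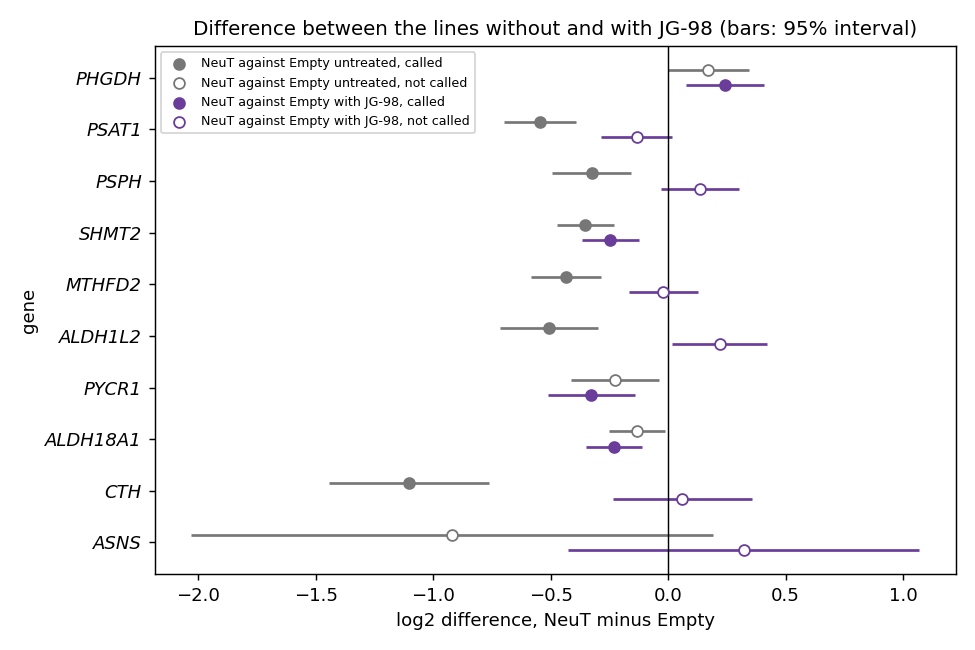
Log2 difference between the lines, NeuT minus Empty (horizontal axis), for each gene (vertical axis), untreated (grey) and with JG-98 (purple), with 95% intervals as bars and filled points where called. The grey points of CTH, PSAT1, ALDH1L2, MTHFD2, SHMT2 and PSPH are called below 0, and of these only SHMT2 is called with JG-98.

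Levels were compared between genes per kilobase of exon (RPKM from TMM-scaled counts). In untreated Empty PSAT1 was the highest at 57.9 ± 1.6 RPKM (SD, n = 2), followed by SHMT2 at 39.9 ± 1.1, ALDH18A1 at 35.2 ± 0.61 and MTHFD2 at 26.6 ± 0.58. PSPH (9.87 ± 0.56 RPKM), PYCR1 (6.05 ± 0.11), ALDH1L2 (4.75 ± 0.18), PHGDH (2.75 ± 0.15) and CTH (2.38 ± 0.24) were lower, and ASNS was at 0.0538 ± 0.020 RPKM. PHGDH and CTH, neighbours in this order, differed by less than the sum of their SDs. The listed exons of PHGDH add up to 9217 bases and those of PSAT1 to 2206 bases, and a long list of rarely used exons lowers an RPKM. In treated NeuT PSAT1 (78.9 ± 8.9 RPKM) again led, MTHFD2 (34.3 ± 3.7) was above ALDH18A1 (27.2 ± 1.5), and ALDH1L2 (7.35 ± 1.3) and PYCR1 (6.61 ± 0.41) lay within their spread of each other.

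The related enzymes tested and named next were not called with the drug in either line. SHMT1, the cytosolic counterpart of SHMT2, was at 73.2 and 75.4 CPM in untreated and 71.9 and 72.5 CPM in treated Empty, and at 48.4 and 53.4 CPM in untreated and 51.1 and 46.7 CPM in treated NeuT. Its log2 fold changes of -0.04 (SE 0.067) and -0.06 (SE 0.068) were not called (edgeR adjusted p-values 0.899 and 0.750). MTHFD1, the cytosolic enzyme that does the work of MTHFD2 and more, changed by -0.08 (SE 0.056) in Empty and -0.12 (SE 0.057) in NeuT, uncalled at edgeR adjusted p-values of 0.708 and 0.328, but called lower in NeuT without NeuT JG-98 replicate 1 (0.0232). MTHFD2L, a second mitochondrial form of MTHFD2, was at 0.02 (SE 0.075) on the log2 scale in Empty and at 0.05 (SE 0.072) in NeuT, neither of them called (edgeR adjusted p-values 0.970 and 0.796). ALDH1L1, the cytosolic counterpart of ALDH1L2, had 44 counts in all and was not tested, and PYCR3, a relative of PYCR1, ranged from 0.945 to 4.33 CPM. Its estimates, -0.93 in Empty (SE 0.75) and 0.97 in NeuT (SE 0.73), differed in sign and were not called (edgeR adjusted p-values 0.770 and 0.618). The differences between members of such pairs were not themselves tested.

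Other genes of the same metabolism were counted in 4 lists, to be read against all genes, of which edgeR called 0.339% in Empty and 3.01% in NeuT and 9.83% and 16% had an unadjusted p-value under 0.05. Of 22 other folate and one-carbon genes 19 were tested, with medians of -0.07 in Empty and -0.06 in NeuT. None was called in Empty by edgeR, DESeq2 or limma-voom (2 of 19 had an unadjusted edgeR p-value under 0.05, and 5 of 19 in NeuT). In that line SFXN1, a mitochondrial serine transporter, fell by 0.25 (SE 0.063; edgeR adjusted p-value 0.0427). Of 18 genes of other amino acid synthesis and interconversion 16 were tested (medians 0.02 and 0.07), of which 3 in Empty and 4 in NeuT had an unadjusted edgeR p-value under 0.05. GPT2, the mitochondrial alanine aminotransferase, rose in both lines, by 0.40 in Empty (SE 0.081; edgeR adjusted p-value 0.0483) and 0.53 in NeuT (SE 0.081; edgeR adjusted p-value 0.00142), and GOT1, the cytosolic aspartate aminotransferase, rose in NeuT by 0.29 (SE 0.056; edgeR adjusted p-value 0.00854).

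Of 10 methionine cycle and transsulfuration genes 7 were tested (medians 0.09 and 0.08). None was called in Empty by edgeR, DESeq2 or limma-voom (1 of 7 at an unadjusted edgeR p-value under 0.05, and 2 of 7 in NeuT), and MAT2A, which makes S-adenosylmethionine, fell in NeuT by 0.21 (SE 0.053; edgeR adjusted p-value 0.0424). Of 6 genes of de novo purine synthesis, which consumes formyl groups from folate, none was called in either line by edgeR, DESeq2 or limma-voom (medians -0.03 and -0.06; 0 in Empty and 2 in NeuT at an unadjusted edgeR p-value under 0.05). The calls of SFXN1 and MAT2A each held in 8 of 17 other settings, that of GPT2 in Empty in 7, that of GPT2 in NeuT in 16 and that of GOT1 in 14. Among the settings that ended these calls, edgeR gave 0.570 for GPT2 in Empty without Empty JG-98 replicate 1, 0.0637 in NeuT without NeuT untreated replicate 1, and, in NeuT, 0.163 for GOT1 and 0.308 for SFXN1 without NeuT untreated replicate 2 and 0.292 for MAT2A without NeuT untreated replicate 1.

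Between the untreated lines, where 20.8% of all genes were called lower and 21.2% higher in NeuT, 8 of the 19 folate and one-carbon genes were called lower and 2 higher. Of the 16 other amino acid genes 5 were lower and 2 higher, of the 7 methionine and transsulfuration genes 2 were lower and 1 higher, and of the 6 purine genes 4 were lower and 0 higher. With JG-98, where 20% of all genes were called lower and 21.7% higher, the counts in the same order of lists were 9 lower and 2 higher, 5 and 2, 2 and 2, and 3 and 0.

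**Figure D4:**
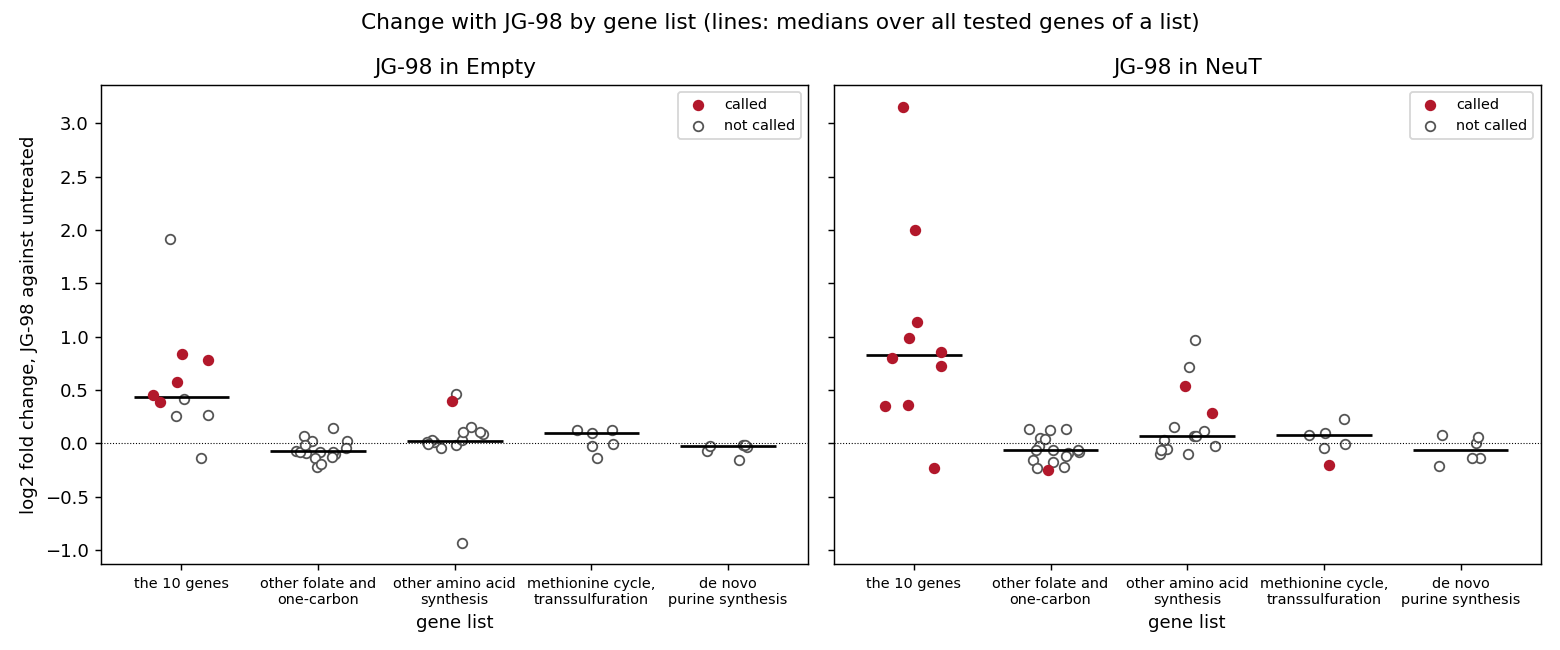
Log2 fold change with JG-98 (vertical axis) of the 10 genes and of 4 other lists (horizontal axis) in Empty and NeuT, with filled points where called and lines at the median over the tested genes of a list. All 10 genes are drawn, genes of the other lists with fewer than 400 counts in all libraries together are not, and the only called genes outside the 10 are GPT2, GOT1, SFXN1 and MAT2A.

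The 10 genes were also compared by their pattern over the 8 libraries, as a description in which all libraries share lines and treatment groups. Pearson's r of log2 CPM was highest for PSAT1 with MTHFD2 (0.992), then MTHFD2 with CTH (0.992) and PSAT1 with CTH (0.985), and lowest for PHGDH with ALDH18A1 (-0.854). Of 13107 other genes, each averaging 50 counts or more per library, UPP1, which encodes uridine phosphorylase, was the most like both PSAT1 (r 0.998) and MTHFD2 (r 0.997). Its mean level in Empty was 239.6 CPM untreated and 308.8 CPM treated, and in NeuT at 183 and 300.8 CPM. Next to PSAT1 came SHOC2 (0.992) and GPBP1 (0.980), and next to MTHFD2 came GPBP1 (0.987) and GPX8 (0.985). CHAC1 (0.989), which breaks down glutathione, ADM2 (0.986) and EML2 (0.984) were the most like PHGDH. The mean level of CHAC1 was 1.72 CPM in untreated and 11.9 CPM in treated Empty, and 2.34 CPM in untreated and 39.9 CPM in treated NeuT. VEZF1 (0.993), GPX8 (0.991) and SLC1A4 (0.989), a neutral amino acid transporter, were the most like ALDH1L2. Mean SLC1A4 levels in the same order of groups were 4.55, 9.77, 2.23 and 13.4 CPM.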

How the data were processed

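The deposited counts are raw, in 1 table with a column for each of 8 libraries and columns of gene coordinates and lengths, per the file headers. The submitters' processing notes name Trim Galore 0.5.0, FastQC 0.11.7, HISAT2 2.1.0, SAMtools 1.9, featureCounts 1.6.3 and limma, and hg38/GRCh38. Annotation release and use of strand are not given in the sources used here. The authors also deposited, per line, a table of log2 fold changes, mean log2 expression, test scores and p-values. Samples were grouped by title, and 0 columns of per-sample values were left unmatched. Symbols came from a table holding 60261 of 60617 identifiers. Coordinates are those of the count table, and promoter coordinates those of RefSeq.

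Tests used edgeR 4.0.16 (R 4.3.3): filterByExpr at its minimum count 10 and total 15, TMM factors, and 1 robust quasi-likelihood model of the 4 groups. Benjamini-Hochberg adjustment covered 17693 genes. SEs are the size of the change over the square root of F. Since 2 libraries against 2 cannot reach 0.05 in an exact permutation test of 1 gene, the gene tests lean on the spread shared across genes. The robust fit leans on it less for genes of unusual spread, such as PYCR3. Replicates of a group differed by more than sampling noise (chi-square statistic per gene of 4.43 to 21.0). The scripts were tested on simulated counts. DESeq2 1.42.0 and limma-voom (limma 3.58.1) were among the alternatives. The 10 genes and the other lists were chosen with earlier results of these data known. Named outside them by a fixed rule are related enzymes (1 is not reported here), up to 3 called genes per list, drug comparison and direction, and the 3 genes most like PHGDH, PSAT1, MTHFD2 and ALDH1L2 (log2 CPM with prior count 2). CBS, MTAP, BCAT1, BHMT2, BHMT, FTCD and PRODH, from the same lists, were named after their counts were seen.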

Additional observations from a re-analysis of the deposited data

How the results depend on the processing

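Over 17 alternatives (RLE factors, total counts, no filter, at least 10 counts in every library, DESeq2, limma-voom, the replicate block, only the 4 libraries compared, no robust estimation, and each library left out), 744 of 835 values for single members kept their direction and call, 39 lost and 46 gained a call, and 6 changed sign. A value without an adjusted p-value, such as that of ASNS in NeuT with DESeq2, was counted as kept where its direction held. ASNS was not tested with at least 10 counts in every library, and the interaction was not fitted to 4 libraries. The number of the 10 genes called with JG-98 in Empty was 5, and 8 without the filter and also with only the 4 libraries compared. It was 7 with DESeq2 and 4 with limma-voom, among 151 and 44 genes in all. In NeuT it was 10, and 9 with DESeq2 and with limma-voom, among 722 and 504 genes in all. With only the 4 libraries compared PYCR1 and ALDH18A1 were not called in NeuT. Leaving out 1 library moved the number called in Empty, in NeuT, between untreated lines, between treated lines and for the interaction. The numbers over all genes moved as well. The interaction count was 2 with DESeq2 and 5 without the filter. The causes were not tested.

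Values that changed sign were uncalled there. For the treated lines CTH was at -0.0159 with total counts. With 1 library left out, CTH ran from -0.201 (without NeuT JG-98 replicate 2) to 0.291, ASNS from -0.0826 (without the same library) to 0.644, and MTHFD2 from -0.133 to 0.0947 (without NeuT JG-98 replicate 1), with 0.0456 without Empty JG-98 replicate 1. The PHGDH interaction ran from -0.0478 (without NeuT JG-98 replicate 2) to 0.165. With the drug MTHFD2L ran from -0.0306 (without Empty JG-98 replicate 1) to 0.0623 in Empty, with -0.0107 without Empty untreated replicate 1. Without NeuT untreated replicate 2 in NeuT, MTHFD2L was at -0.00141 (highest 0.0963) and SHMT1 at 0.00827 (lowest -0.131).

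Over all genes, JG-98 calls were 60 in Empty and 533 in NeuT, against 282 and 1000 without the filter, 205 and 185 with only the 4 libraries compared, 151 in Empty with DESeq2, and 9 to 417 and 132 to 2133 with 1 library left out. Interaction calls were 1, against 138 without the filter, 26 with DESeq2, 3 without robust estimation, 2 with total counts and 1 to 777 with 1 library left out.

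Replicate numbers are not stated to pair samples. Differences between replicates correlated between groups with r from -0.101 to 0.244 over 9549 genes. With the replicate block 5 of the 10 genes were called in Empty, 10 in NeuT, 6 and 4 between lines and 0 for the interaction, as without it. Over all genes that fit called 66 in Empty, 593 in NeuT, 7497 and 7451 between lines and 1 for the interaction. Low counts limit ASNS, with 7 to 84 per library.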

Other observations

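Several genes of these pathways had almost no reads. MTAP, which acts on methylthioadenosine, a by-product of polyamine synthesis, had 2 to 4 counts in the Empty libraries and 13 to 30 counts in the NeuT libraries. BCAT1, the cytosolic branched-chain aminotransferase, had 0 to 2 counts in Empty and 8 to 28 counts in NeuT. At these counts edgeR called both higher in NeuT. The log2 differences were 2.97 untreated and 2.60 with JG-98 for MTAP, and 2.51 and 7.48 for BCAT1, which had 0 counts in treated Empty. Over all genes, 21.2% untreated and 21.7% with JG-98 were called higher. BHMT2 had 0 counts in all libraries, BHMT 5, FTCD 2 and PRODH, which breaks down proline, 9 counts in all.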
